A study of Mus musculus with 2 samples.

Results

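Interferon-stimulated genes and interferon-inducible GTPases were followed in lung cells of mouse fetuses as 1 module. It was defined by a list of 49 gene symbols, and 47 of them were found among the 32285 genes of the count matrix. Mx1 and Mx2, the dynamin-like antiviral GTPases, had no row there and are not analysed here. The members were read in each cell class, in subclusters of ILC2-like cells, and between fetuses of dexamethasone (DEX)-treated and PBS-treated mothers.

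The cells came from lungs of wild-type C57BL/6J fetuses taken on gestation day 18. Mothers, 9 weeks old, received DEX, a synthetic glucocorticoid, at 1.3 µg/ml in drinking water from gestation day 12, and control mothers received PBS in drinking water. Fetuses were pooled by litter, with 8 and 9 fetuses in the litters called DEX-1 and DEX-2 and 5 and 8 in those called PBS-1 and PBS-2, and lineage-negative CD45+ ST2+ cells were sorted to enrich group 2 innate lymphoid cells (ILC2s), the tissue-resident lymphocytes that release type 2 cytokines. The litters carried 1 hashtag antibody each and were run together as 1 gene expression library, so the litter was the replicate (n = 2 per treatment), and litter and treatment share that library.

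Interferons reach cells through surface receptors: type I interferons bind Ifnar1 and Ifnar2, and type II interferon, or Ifng, binds Ifngr1 and Ifngr2. JAK kinases then activate STAT proteins. A complex that holds Stat2 and Irf9 binds interferon-stimulated response elements (ISREs), and STAT pairs bind gamma-activated sites (GAS). The products induced, among them Isg15, the IFIT and OAS families, and the immunity-related (IRG) and guanylate-binding (GBP) GTPases, act against viruses and against microbes inside vacuoles, and many are also expressed at a low level without infection.

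Promoter sequences are shown for the members that the results below turn on: Irf1 and Apol9b, which passed the test between treatments, Apol9a, the near-identical copy of Apol9b, and Isg15 and Bst2, antiviral members whose levels separated cell classes. They are stretches of 150, 121 or 141 bases from RefSeq on GRCm38.p6, written 5′ to 3′ on the strand of the gene. Capitals mark an ISRE core (GAAANN followed by GAAA) or a GAS core (TTCNNN followed by GAA), where N is any base, on either strand, counting overlapping matches. The stretches are chr11:53769864-53770013 (+) for Irf1, chr15:77411110-77411230 (−) for Apol9a, chr15:77728922-77729062 (+) for Apol9b, chr4:156200819-156200968 (−) for Isg15 and chr8:71537473-71537622 (−) for Bst2.
Irf1: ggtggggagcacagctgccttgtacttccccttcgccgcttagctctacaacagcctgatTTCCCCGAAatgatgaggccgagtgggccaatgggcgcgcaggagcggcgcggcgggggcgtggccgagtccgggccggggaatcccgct
Apol9a: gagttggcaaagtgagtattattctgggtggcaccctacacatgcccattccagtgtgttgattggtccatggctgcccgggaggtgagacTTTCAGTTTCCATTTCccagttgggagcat
Apol9b: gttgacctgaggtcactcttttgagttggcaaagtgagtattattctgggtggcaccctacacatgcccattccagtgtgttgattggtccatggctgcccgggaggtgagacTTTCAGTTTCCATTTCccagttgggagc
Isg15: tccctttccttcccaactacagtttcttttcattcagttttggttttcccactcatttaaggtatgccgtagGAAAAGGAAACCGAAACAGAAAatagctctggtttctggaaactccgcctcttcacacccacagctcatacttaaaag
Bst2: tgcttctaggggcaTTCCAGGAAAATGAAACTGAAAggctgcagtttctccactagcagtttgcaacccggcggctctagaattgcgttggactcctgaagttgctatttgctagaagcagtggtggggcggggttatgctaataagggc

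The Irf1 stretch held 1 GAS core and no ISRE core. Each Apol9 stretch held 2 overlapping ISRE cores, Isg15 held 3, and Bst2 held 2, with a GAS core that overlaps 1 of them. Promoters of 300 bases were matched for 36 of the 47 members. Not in that table were Usp18, Rtp4, Oas2, Dhx58, Zbp1, Ifi204, Iigp1, Gbp4, Gbp6, Parp9 and Parp14. An ISRE core was found in 24 of the 36 (66.7%), against 3.99% of 27025 promoters of the same length, and a GAS core in 12 (33.3%), against 9.55%. All 4 GBP genes with a promoter and 5 of 6 IRG genes held an ISRE core. A match in these letters is a description of the sequence and shows no binding.

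After filtering, 10409 of 10648 barcodes were kept, all from 1 library with no repeated barcode, and 7268 had a single hashtag. Clusters named from marker lists gave 2078 ILC2-like cells (455 to 579 per litter), 3444 basophil or mast-like, 451 epithelial-like, 268 endothelial-like, 199 B-like and 184 mesenchymal-like cells, with 644 left unnamed. The sort therefore held many cells besides ILC2s. In ILC2-like cells the 10 ILC2 markers, among them Gata3 and Il1rl1, summed to 4343 to 4833 CPM per litter (CPM are UMIs of a gene scaled to a common library total), and 6 T cell markers, among them Cd3g, to 466 to 538 CPM. Neutrophil markers were almost absent (5 of 7 at 0, summing to 0 to 2.1 CPM). The summed counts of ILC2-like cells were 3811776 to 5254480 UMIs (unique molecular identifiers, each 1 captured transcript) per litter, against 143607 to 204218 in B-like cells, where a member with few UMIs is poorly measured. In cells summed per litter, a class with fewer RNA molecules of a gene per cell and a class with fewer expressing cells cannot be told apart.

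At baseline, most members were highest in endothelial-like cells. The 47 members summed to 2601, 3538, 3003 and 2737 CPM in the endothelial-like cells of DEX-1, DEX-2, PBS-1 and PBS-2, and to 581, 638, 627 and 571 CPM in ILC2-like cells. Every endothelial litter was above every litter of the other 5 classes. B-like cells followed at 1524 ± 261 CPM (SD, n = 4 litters of both treatments), then mesenchymal-like cells at 707 ± 83.9, ILC2-like cells at 604 ± 33.3, basophil or mast-like cells at 446 ± 48 and epithelial-like cells at 361 ± 29.4. The litters of mesenchymal-like and ILC2-like cells overlapped, so these neighbours in the order did not differ beyond their spread, and the litters of the other neighbours did not overlap. Endothelial-like cells also carried markers of other classes. Their 6 endothelial markers summed to 4728, 4626, 5558 and 4111 CPM in DEX-1, DEX-2, PBS-1 and PBS-2. The 8 epithelial markers summed to 2906, 432, 293 and 6309 CPM, and the 12 basophil or mast markers to 3420, 6783, 765 and 5887 CPM. What mixed barcodes add to the levels of this class was not tested.

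**Figure D1:**
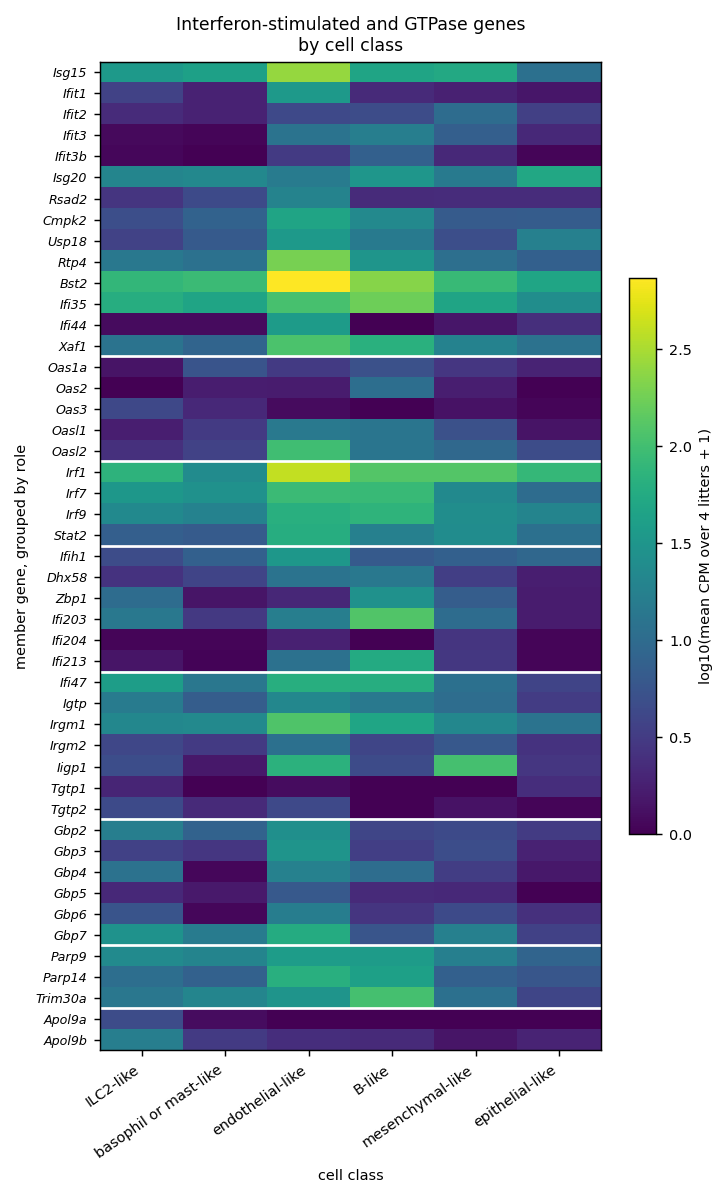
Mean level of each of the 47 members (rows, grouped by role) in 6 cell classes (columns), as log10 of the mean CPM over 4 litters plus 1. The endothelial-like column is the brightest for Bst2, Irf1, Isg15 and Rtp4, the mesenchymal-like column for Iigp1, and the ILC2-like column for Apol9a and Apol9b. Levels are per UMI and can be compared along a row.

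By gene, 27 of 47 members had their highest mean in endothelial-like cells, where 21.3% of 17662 genes with 10 or more UMIs did. For 16 members every endothelial litter exceeded every litter of all other named classes, a pattern of 6.47% of genes. They were Isg15, Ifit1, Rsad2, Cmpk2, Usp18, Rtp4, Bst2, Ifi44, Oasl2, Irf1, Stat2, Ifih1, Irgm1, Gbp3, Gbp6 and Gbp7. The clusters were made from the same cells, with the members and the related pathway genes kept out of the genes used, so these values are descriptions without a test.

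Among the antiviral effectors, Bst2 (tetherin), which holds budding virions on the cell surface, was at 692, 797, 841 and 620 CPM in the endothelial-like cells of DEX-1, DEX-2, PBS-1 and PBS-2, and at 70.8, 89.2, 75.5 and 73.7 CPM in ILC2-like cells. Isg15, a ubiquitin-like modifier, was at 150, 344, 296 and 242 CPM in endothelial-like and at 29.5, 45.9, 37.2 and 21.5 CPM in ILC2-like cells. Both genes were far apart between the 2 classes in every litter. Oasl2, of the oligoadenylate synthetase-like family, was at 80.8, 109, 98.5 and 99.7 CPM in endothelial-like cells and averaged 1.5 CPM in ILC2-like cells. Ifi44, an interferon-induced protein, was at 23.1, 50.3, 32.6 and 39.9 CPM, with only 4 UMIs in all ILC2-like cells. The transcription factor Irf1 was at 362, 485, 349 and 412 CPM in endothelial-like cells, again above every other class.

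Each of the other classes had the highest mean for fewer members. Iigp1, an IRG GTPase that loads onto pathogen vacuoles, was highest on average in mesenchymal-like cells at 112, 101, 134 and 72.1 CPM, but endothelial-like cells of DEX-2 reached 136 CPM and the classes overlapped. Within the mesenchymal-like class, the cluster led by Agt, Tgfbi and Nrxn3 had 270, 236, 256 and 327 CPM of Iigp1, and the cluster led by Mfap4 and Tcf21 had 61.2, 61.7, 80.1 and 44.7 CPM. Litters of these clusters did not overlap, although the former rested on 69 UMIs. The remaining cluster of this class, led by Higd1b, Postn and Cox4i2, had no value in PBS-2. Its Iigp1 level was 74.8, 240 and 322 CPM in DEX-1, DEX-2 and PBS-1 (52 UMIs), which overlapped both. Ifit3 and Ifit2, RNA-binding IFIT proteins, had the next largest ratios to ILC2-like cells and averaged only 6.32 and 9.28 CPM.

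B-like cells were above all other classes in every litter for Ifi213, Ifi203, Trim30a and Ifi35, that is for 4 members against 4.18% of genes. Ifi203, of the DNA-binding IFI200 family, was at 139, 83.4, 122 and 142 CPM there, and its relative Ifi213 at 48.7, 49.1, 58.8 and 63.7 CPM against a mean of 0.441 in ILC2-like cells. Ifit3 and Oas2 also had large ratios in B-like cells, but these rested on 11 and 8 UMIs. Epithelial-like cells were separate for 1 member, against 8.3% of genes: Isg20, an exonuclease that degrades viral RNA, at 46.4, 54.7, 53.3 and 49.8 CPM. In the same class Usp18, the protease that removes Isg15 from proteins and dampens type I signalling, was at 14.8, 21.9, 16.3 and 13.6 CPM, and Ifi44 averaged 1.46 CPM.

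In basophil or mast-like cells no member had every litter above those of the other classes, where 3.61% of genes did, and the same was true of mesenchymal-like cells (3.21%). The members with the largest ratios to ILC2-like cells were Oas1a at 4.27, 4.83, 5.35 and 3.59 CPM, Usp18 at 6.66, 5.03, 6.15 and 4.42 CPM, and Oasl1 at 1.63, 1.87, 3.34 and 1.52 CPM. Isg15 stood out in 1 litter of this class, at 31.7, 35.3, 64.1 and 33.7 CPM. In the cluster led by Ccl4, Mcpt8 and Ccl3 it was at 18.7, 14.6, 120 and 39.7 CPM, again highest in PBS-1. Among the unnamed cells, a cluster led by S100a8, Ctss and Ear2 (259 cells) had Isg15 at 21.4, 63.0, 96.4 and 119 CPM and Oas1a at 17.1, 36.2, 57.8 and 38.7 CPM.

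ILC2-like cells were the highest class, in every litter, for Oas3, Apol9a and Apol9b, 3 members where 4.3% of genes did so. Of the 47 members, 46 had at least 1 UMI in ILC2-like cells, and only Oas2 had none. The 10 members with the highest mean were Bst2 (77.3 CPM), Irf1 (70.8), Ifi35 (60.9), Ifi47 (38.1), Isg15 (33.5), Irf7 (32.1), Gbp7 (27.6), Parp9 (22.3), Irf9 (21.7) and Irgm1 (20.1). Among them, Ifi35, a partner of Nmi, was at 51.9, 63.2, 67.3 and 61.3 CPM, and Ifi47, an IRG GTPase, at 35.2, 34.9, 39.5 and 42.6 CPM. Relative to the mean, the widest spread among these 10 was in Isg15, whose highest litter was DEX-2 and lowest PBS-2.

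Cells that expressed several classical members at once were rare among ILC2-like cells. After thinning each cell to 2000 UMIs, 3 of 2052 ILC2-like cells (0.146%, exact 95% interval 0.0302 to 0.427%) had a UMI of 3 or more of Ifit1, Ifit2, Ifit3, Ifit3b, Isg15, Rsad2, Cmpk2, Usp18 and Oasl1, against 12 of 268 endothelial-like cells (4.48%) and 3 of 3189 basophil or mast-like cells (0.0941%). Without thinning the shares were 0.77%, 39.6% and 1.48%, at median depths of 7196, 11325 and 7574 UMIs. Intervals cover counting error only. In ILC2-like cells, 16 of the 44 Ifit1 UMIs came from 1 cell of DEX-2.

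Within ILC2-like cells, a subcluster led by Cd7, Ms4a4b and Lgals3 (349 cells) had the highest summed level of members, at 961, 836, 1117 and 848 CPM in DEX-1, DEX-2, PBS-1 and PBS-2. Its next leading genes were Nkg7, Ripor2, Tcf7, S1pr1, Klf2, Il18r1 and Isg15. It held 64 of the 146 Ifng UMIs of ILC2-like cells, in 11 cells. The cycling subcluster averaged 475 CPM, and those led by Gsto1, Ctla2a, Il5 and Pla2g7 averaged 688, 601, 560 and 497 CPM. The smallest subcluster, led by Plcl1 and Trps1 (31 cells, median of 2233 UMIs), was left out of the comparisons between subclusters. Among the 6 subclusters compared, 25 of 40 members with 10 or more UMIs had their highest mean in the Cd7 subcluster. This was so for 18.4% of 12969 genes. For 2 members the litters of the Cd7 subcluster were all above those of the others compared, against 0.887% of genes. They were Trim30a, a ubiquitin ligase, at 20.9 to 46 CPM, and Xaf1, an apoptosis factor, at 20.4 to 31.5 CPM. In the subcluster left out, Trim30a had 2 UMIs, at 61.4 CPM in DEX-1 and 38 CPM in PBS-2.

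Isg15 in the Cd7 subcluster was at 86.9, 87.8, 111 and 53.3 CPM. Bst2 was at 117, 95.6, 133 and 129 CPM, and Irf7, the factor that drives type I interferon genes, at 73, 51.1, 77.5 and 41.8 CPM. Both DEX litters were below both PBS litters for Bst2, and the treatments overlapped for Isg15 and Irf7. The Apol9 pair went the other way: Apol9b had 3 UMIs in all cells of this subcluster (1.07, 0, 2.42 and 1.9 CPM). It averaged 14.2 to 20.1 CPM in the other 5 compared. The small and shallow subcluster left out of the comparisons had no Apol9b UMI. The Cd7 subcluster made up 21.8 and 23.1% of the ILC2-like cells of the DEX litters and 12 and 11.1% of the PBS litters, so Irf1 and Apol9b are also given without it below. Shares of other subclusters differed between treatments too: the one led by Ctla2a made up 28.9 and 22.9% with DEX and 37.8 and 38.5% with PBS, and the one led by Il5 10.1 and 18.9% with DEX and 8.57 and 6.22% with PBS.

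**Figure D2:**
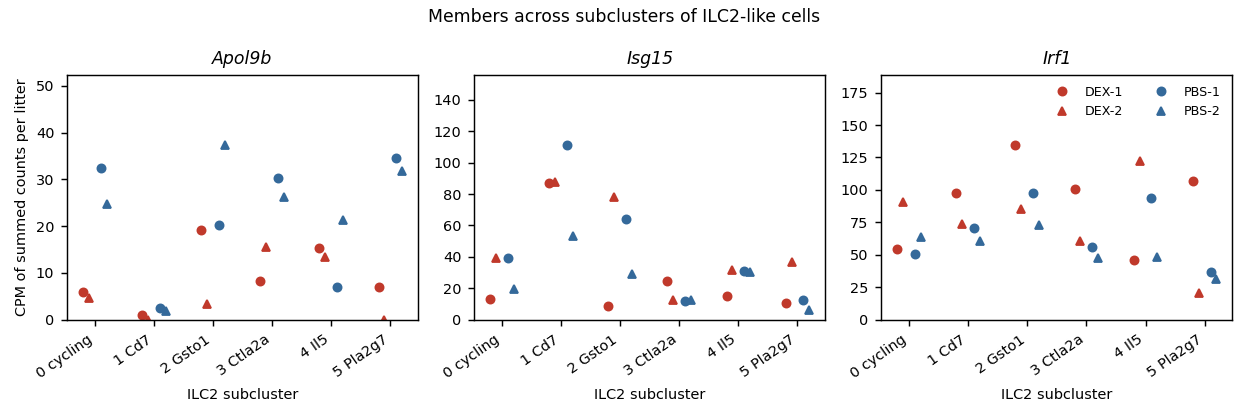
Level of Apol9b, Isg15 and Irf1 (CPM of summed counts, linear axes from 0) in 6 subclusters of ILC2-like cells, with 1 point per litter (red DEX, blue PBS). Apol9b is near 0 in the Cd7 subcluster and well below the PBS litters in both DEX litters in the cycling, Ctla2a and Pla2g7 subclusters, and Isg15 is highest in the Cd7 subcluster.

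Between treatments, 2 members changed in ILC2-like cells: Irf1 rose and Apol9b fell in fetuses of DEX-treated mothers. The counts of each litter were summed and tested with edgeR's quasi-likelihood test, two-sided, with Benjamini-Hochberg adjustment over 10654 genes, of which 276 passed at 0.05 (2.59%, with 1.26% higher and 1.33% lower with DEX). Of the members, 32 passed the filter on low counts, 2 were called and 6 had an unadjusted p under 0.05. The fitted change was upwards in 18 and downwards in 14, with a median log2 fold change of 0.07, against 0.00 over all genes tested. Both DEX litters were above both PBS litters for 4 members and below them for 7, of 32, where 21.1% of all genes did each. The 15 members not tested had 0 to 44 UMIs in ILC2-like cells, 7.35 CPM at most in any litter, and were Ifit1, Ifit2, Ifit3, Ifit3b, Rsad2, Ifi44, Oas1a, Oas2, Oasl1, Oasl2, Dhx58, Ifi204, Ifi213, Tgtp1 and Gbp5.

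Irf1 (chr11:53770014-53778374, + strand, mm10), a transcription factor that activates GBP and MHC class I genes, was at 82.6 and 85.0 CPM in the DEX litters and at 59.0 and 57.8 CPM in the PBS litters, scaled by the trimmed mean of M-values (TMM). The means were 83.8 ± 1.7 and 58.4 ± 0.819 CPM (SD, n = 2), and both DEX litters were above both PBS litters. The difference was 1.43-fold, a log2 fold change of 0.52 ± 0.10 (SE), with an adjusted p of 0.0068 in edgeR's quasi-likelihood test. The estimate was 0.41 to 0.78 under 17 alternatives and passed in 14, but not with DESeq2 (adjusted p = 0.0809), with cells thinned to 2000 UMIs (0.104) or in the Cd7 subcluster alone (0.942). Without that subcluster it was 0.53 (adjusted p = 0.0305).

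Much of the Irf1 signal sat in few cells. Cells with 5 or more Irf1 UMIs numbered 16 and 18 in the DEX litters and 9 and 6 in the PBS litters, and held 39.7, 56.3, 24 and 15.2% of the UMIs of the gene in DEX-1, DEX-2, PBS-1 and PBS-2. Without them the levels were 50, 36.5, 45.1 and 48.7 CPM of the summed counts, and the treatments overlapped. The limit of 5 UMIs was chosen after the values were seen, and leaving out high cells lowers by construction the group that has more of them. The share of cells with any Irf1 UMI was 31.9 and 25.7% with DEX and 26.9 and 30.1% with PBS, also overlapping. Within subclusters, both DEX litters were above both PBS litters in 2 of the 6 compared, those led by Cd7 and Ctla2a, and overlapped in the other subclusters compared.

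**Figure D3:**
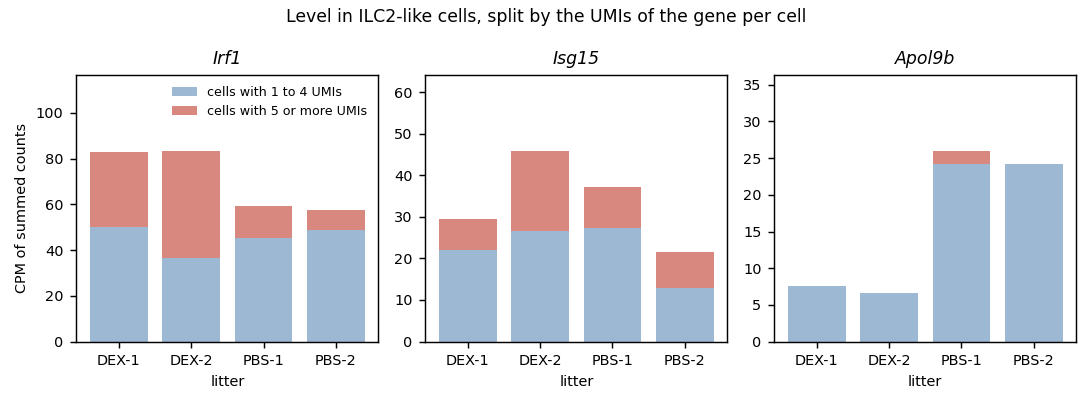
Level of Irf1, Isg15 and Apol9b in ILC2-like cells of each litter (CPM of summed counts, bars from 0), divided into UMIs from cells with 1 to 4 UMIs of the gene (blue) and from cells with 5 or more (red). For Irf1 the red part is 39.7 and 56.3% of the DEX bars and 24 and 15.2% of the PBS bars, and the blue parts overlap, whereas for Apol9b the blue parts differ between treatments.

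Apol9b (chr15:77729039-77736382, + strand, mm10), an interferon-inducible member of the apolipoprotein L family, was at 7.56 and 6.68 CPM in the DEX litters and at 25.8 and 24.3 CPM in the PBS litters on the TMM scale. The means were 7.12 ± 0.625 and 25.1 ± 1.06 CPM (SD, n = 2), with no overlap. It was 3.48-fold lower with DEX, a log2 fold change of −1.80 ± 0.20 (SE), with an adjusted p of 8.8e-05 in edgeR's quasi-likelihood test. The call held in all 16 alternatives that gave a value (−1.90 to −1.34), among them the fit without the Cd7 subcluster, where it was −1.65 (adjusted p = 0.00126).

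Both fewer cells with an Apol9b UMI and fewer UMIs per such cell were seen with DEX, and at this detection these cannot be told apart. Cells with the transcript had a mean of 1.13 and 1.25 UMIs of it with DEX and 1.57 and 1.38 with PBS. Of ILC2-like cells, 5.78 and 4.4% had an Apol9b UMI in the DEX litters and 13.3 and 15.9% in the PBS litters. With every cell thinned to 2000 UMIs the shares were 0.907 and 1.33% against 3.73 and 3.52%. B-like cells, at a median of 3528 UMIs, and epithelial-like cells, at 17532, showed the transcript in 0.503 and 1.11%, against 10.1% of ILC2-like cells at 7196 UMIs. In the cycling subcluster 8.93 and 4.35% of cells had an Apol9b UMI with DEX and 21.9 and 21.6% with PBS. In CPM, both DEX litters were below both PBS litters by a wide margin in the cycling, Ctla2a and Pla2g7 subclusters. In the Gsto1 subcluster DEX-1 (19.3 CPM, 9 UMIs) was next to PBS-1 (20.2 CPM, 6 UMIs), in the Il5 subcluster the litters overlapped, and in the Cd7 subcluster the counts were too few to order.

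Apol9b has a near-identical copy, Apol9a (chr15:77403789-77411135, − strand, mm10), on the same chromosome. Of the 31-base words in their transcripts, 69.7% of those of Apol9a and 65.1% of those of Apol9b occur in the other gene, and the 250 bases before their starts share an identical run of 228 bases, seen in the promoter stretches above. Over the first 200 bases of the transcripts, the shared words were 99.4% for Apol9a and 51.2% for Apol9b. The library was made with a 5′ kit. Reads in shared stretches can be split between copies or dropped by the counting, so the level of each gene alone is uncertain. What this adds to the difference between the copies was not tested. ILC2-like cells had 66 UMIs of Apol9a and 290 of Apol9b, and Apol9b took 75 and 73.5% of the pair in the DEX litters and 85 and 82.5% in the PBS litters.

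Apol9a was at 2.52 and 2.40 CPM with DEX and at 4.56 and 5.17 CPM with PBS on the TMM scale, a log2 fold change of −0.98 ± 0.37 that did not pass in edgeR's quasi-likelihood test (adjusted p = 0.25), although both DEX litters were the lower. With the copies summed into 1 row, the pair was at 10.1 and 8.92 CPM of the summed counts with DEX and at 30.6 and 29.3 CPM with PBS, a log2 fold change of −1.63 ± 0.18 (edgeR, adjusted p = 7.45e-05). Summing removes the effect of dividing reads between the copies, but not of reads that the counting dropped.

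The other near-identical pairs gave few UMIs. Tgtp1 and Tgtp2, IRG GTPases that share 92.9 and 93.3% of their 31-base words, had 17 and 58 UMIs in ILC2-like cells, 0 and 39 in basophil or mast-like cells and 14 and 1 in epithelial-like cells, so the copy counted differed between classes. Summed, the Tgtp pair was at 4.01, 6.3, 4.08 and 3.05 CPM in ILC2-like cells of DEX-1, DEX-2, PBS-1 and PBS-2, a log2 fold change of 0.54 ± 0.37 (edgeR, adjusted p = 0.63). Ifit3 and Ifit3b, which share 61.8 and 54.1%, had 3 and 2 UMIs in ILC2-like cells and 54 and 10 in endothelial-like cells.

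**Figure D4:**
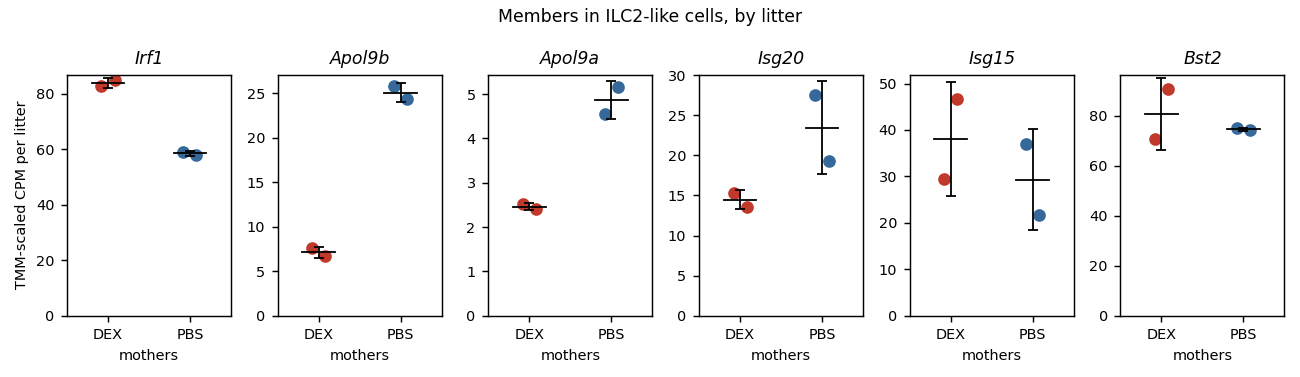
Level of 6 members in ILC2-like cells by litter (TMM-scaled CPM, linear axes from 0); points are litters, lines the mean and bars the SD of 2 litters. Irf1 is higher in both DEX litters, Apol9b, Apol9a and Isg20 are lower in both, and Isg15 and Bst2 overlap.

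Several other members differed in mean without passing. Isg15 was at 29.4 and 46.8 CPM with DEX and at 37.0 and 21.6 CPM with PBS, so the litters overlapped, with a log2 fold change of 0.39 ± 0.23 (edgeR, adjusted p = 0.55). It passed when DEX-1 (0.70) or PBS-1 (0.79) was left out, so its call rests on which litters are compared. Isg20 was at 15.3 and 13.6 CPM with DEX and at 27.6 and 19.3 CPM with PBS, a log2 fold change of −0.67 ± 0.20 (edgeR, adjusted p = 0.102), and it passed in 4 of 17 alternatives, among them without DEX-1 (−0.76) or PBS-2 (−0.93). Its estimates ran from −0.93 to 0.04, the latter in the Cd7 subcluster alone.

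Among the GTPases, Gbp2 was at 20.4 and 16.0 CPM with DEX and at 11.6 and 15.1 CPM with PBS, a log2 fold change of 0.44 ± 0.20 (edgeR, adjusted p = 0.38). Gbp2 held 27 of its 282 UMIs in 1 cell of DEX-1. None of the 6 IRG and 5 GBP genes tested was called, with 5 and 3 of them fitted higher with DEX. Parp14, an ADP-ribosyltransferase, was at 8.61 and 8.01 CPM with DEX and at 12.2 and 11.3 CPM with PBS, a log2 fold change of −0.49 ± 0.22 (edgeR, adjusted p = 0.379). Bst2, Irf7 and Irf9 had fitted changes of 0.11, 0.16 and 0.02 on the log2 scale and overlapping litters.

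**Figure D5:**
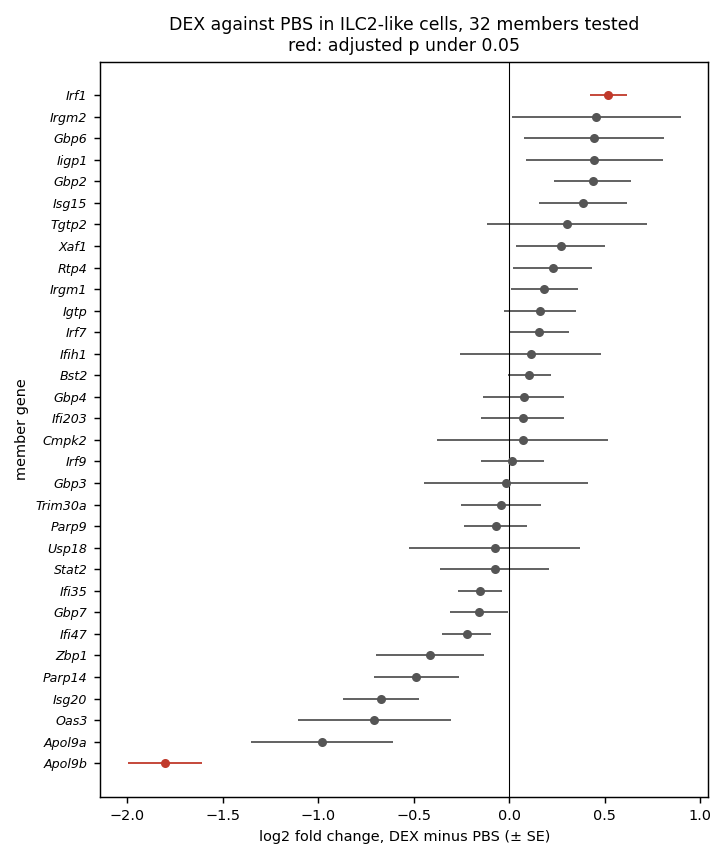
Log2 fold change (DEX minus PBS) of the 32 members tested in ILC2-like cells, with bars of 1 SE from edgeR. Irf1 at 0.52 and Apol9b at −1.80 (red) passed at an adjusted p of 0.05, and the other 30 members (grey) lie between −0.98 and 0.46.

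The genes upstream of the members were read from a pathway list of ligands, receptors, kinases, inhibitors and other interferon targets, of which 67 were in the matrix, 52 were tested in ILC2-like cells and 5 were called, 2 higher and 3 lower with DEX, against 2.59% of all genes called. Interferon ligands were nearly absent: Ifnb1, Ifna1, Ifna2, Ifna4, Ifne and Ifnl3 had no UMI in any tagged cell, Ifnk had 2 and Ifnl2 had 1. Ifng had 154 UMIs in 41 cells. In ILC2-like cells Ifng was at 18.9 and 5.34 CPM with DEX and at 5.57 and 2.68 CPM with PBS (edgeR, log2 fold change 1.67, adjusted p = 0.078), and 29 and 23 of its 90 UMIs in DEX-1 came from 2 cells.

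Among the receptors, Ifngr1, the chain that binds Ifng, rose: it was at 430 and 455 CPM with DEX and at 267 and 313 CPM with PBS, a log2 fold change of 0.60 ± 0.08 (edgeR, adjusted p = 0.00068), with both DEX litters above both PBS litters. It passed in 16 of 17 alternatives. The exception was the Cd7 subcluster alone, where it was at 472 and 472 CPM with DEX and at 388 and 477 CPM with PBS, overlapping (log2 fold change 0.13, edgeR, adjusted p = 0.969). Ifnar1 was at 68.9, 91.6, 62.8 and 81.2 CPM, Ifnar2 at 80, 81.2, 64.1 and 75.1 CPM and Ifngr2 at 84.4, 98, 87.6 and 84.3 CPM in DEX-1, DEX-2, PBS-1 and PBS-2, and these did not pass. Il10rb, shared with type III interferon receptors, was at 28.8, 33.4, 33.9 and 40 CPM, and Ifnlr1 had 2 UMIs.

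Socs1, an inhibitor of JAK kinases, fell, from 131 and 119 CPM with PBS to 91.0 and 86.0 CPM with DEX, a log2 fold change of −0.50 ± 0.09 (edgeR, adjusted p = 0.0068). Tmem173 (STING), an adaptor of DNA sensing, also fell, from 56.5 and 59.8 CPM to 40.3 CPM in both DEX litters (edgeR, log2 fold change −0.53, adjusted p = 0.0167). In the Cd7 subcluster alone their fitted changes were upwards, at 0.53 and 0.48 on the log2 scale, and did not pass. Samhd1, a nucleotide-degrading restriction factor, rose, with 452 and 430 CPM with DEX against 360 and 315 CPM with PBS (edgeR, log2 fold change 0.39, adjusted p = 0.0147). Of 17 alternatives, Socs1 passed in 14, Samhd1 in 13 and Tmem173 in 11. Ifngr1 and Samhd1 belong to a list that the study chose on these cells, which is no independent evidence of their direction.

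MHC class I and its peptide supply gave 10 genes tested, all fitted lower with DEX, with both DEX litters below both PBS litters in 8, where 21.1% of all genes did, and 1 called. That gene was H2-K1, a class I heavy chain, at 795 and 856 CPM with DEX and at 1069 and 1026 CPM with PBS (edgeR, log2 fold change −0.34 ± 0.07, adjusted p = 0.0157). It passed in 11 of 17 alternatives, with estimates of −0.40 to −0.12. B2m, the shared light chain, was at 845 and 839 CPM against 998 and 974 CPM (edgeR, log2 fold change −0.23, adjusted p = 0.111).

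Marker lists of other cells were summed in ILC2-like cells beside these results. The 7 NK or ILC1 markers summed to 172, 78.7, 108 and 40.9 CPM in DEX-1, DEX-2, PBS-1 and PBS-2, with none at 0. The 5 erythroid markers summed to 80.1, 5.51, 9.43 and 5.33 CPM. DEX-1 was therefore the highest litter for both lists. The 7 mesenchymal markers were at 31.8 and 35.4 CPM with DEX and at 18.4 and 17.3 CPM with PBS, and the 8 epithelial markers at 283 and 278 CPM with DEX and at 340 and 329 CPM with PBS, with none at 0 in either list. These lists separated the treatments in opposite directions, and their part in the changes of Irf1 and Apol9b was not tested. Irf1 was at 133 CPM in tagged mesenchymal-like and 81.3 CPM in tagged epithelial-like cells, against 70.3 CPM in tagged ILC2-like cells. Apol9b had 1 UMI in all mesenchymal-like cells, in PBS-1. It had 9 in all epithelial-like cells, 3 in PBS-1 and 6 in PBS-2.

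In the largest class, that of basophil or mast-like cells, no member passed the test. No gene passed edgeR's quasi-likelihood test (0 of 11889, 0%), 654 had an unadjusted p under 0.05, limma-voom called 0 and DESeq2 called 16, none of them a member. Of the 31 members tested, 1 (Gbp2) had an unadjusted p under 0.05, and both DEX litters were above both PBS litters for 2 and below for 4, against 18 and 17.3% of genes. Irf1 was at 23.4 and 19.0 CPM with DEX and at 24.3 and 27.0 CPM with PBS (log2 fold change −0.28, adjusted p = 0.90, edgeR), and Apol9b at 1.01 and 1.89 CPM against 1.6 and 3.75 CPM (−0.84, adjusted p = 0.921).

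Whether the DEX effect differed between the ILC2-like class and the basophil or mast-like class was tested directly, with litter as a term. It passed for 22 of 12366 genes (0.178%) and for none of 38 members tested, of which 5 had an unadjusted p under 0.05. The largest differences by p were in Irf1 (0.81 on the log2 scale, adjusted p = 0.144, edgeR) and Isg15 (0.89, adjusted p = 0.163), and 1 or both passed without DEX-1, PBS-1 or PBS-2. An effect particular to ILC2-like cells was therefore not shown for any member with all 4 litters.

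The small classes gave no call either. In edgeR's quasi-likelihood test 0 of 35 members were called in endothelial-like cells (1 at an unadjusted p under 0.05, Irgm1, log2 fold change 0.68), 0 of 16 in epithelial-like (1, Irf1, 0.39), 0 of 10 in mesenchymal-like (1, Irf1, 0.92) and 0 of 11 in B-like cells (none). Over all genes, 0, 0, 0 and 0.213% were called in these classes, with 290, 491, 312 and 139 genes at an unadjusted p under 0.05. In the cluster led by S100a8, Ctss and Ear2, 0 of 19 members were called, against 0.0333% of genes, and 5 had an unadjusted p under 0.05, among them Isg15 with a fitted change of −1.16 on the log2 scale.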

How the data were processed

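One gene expression library and 1 hashtag library of pooled fetal lung cells were analysed. The deposited values were raw UMI counts per gene and hashtag, made by the authors with Cell Ranger 7 on mm10 according to the submitters' processing notes. For counting settings, the sources used here give nothing more.

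Barcodes with under 200 genes or over 5% mitochondrial UMIs were removed. Hashtags were called with Seurat 5.3.0, which left 7268 singlets and removed 736 barcodes with several tags and 2405 without one. Doublets within a litter were not removed. The labels and hashtags give 2 litters per treatment and were followed, although a figure legend gives 1 dam per group. Cells were clustered with scanpy 1.11.5 and leidenalg 0.10.2 at a resolution of 0.5, leaving out the members, and named from marker lists. These names were rebuilt here and can differ from those of the study.

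Counts were summed per litter and class, filtered with filterByExpr, scaled by TMM and tested with edgeR 4.0.16, with limma 3.58.1 and DESeq2 1.42.0 as alternatives, in R 4.3.3. The code was tested on simulated data. Levels by class are CPM of the summed counts, without a length correction and without a test. Other alternatives were the count filter, the scaling, the hashtag rule, the mitochondrial limit, thinning, cycling cells, each litter left out and the litter number as a block. Same-numbered litters did not deviate together (correlation 0.0755 in ILC2-like and −0.0467 in basophil or mast-like cells), so no pairing was used. Shares have exact Clopper-Pearson intervals.

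The members and lists were chosen with earlier results of these data known. Genes were named by a rule: members called in either large class, copies of the near-identical pairs, the 10 highest in ILC2-like cells, the 3 with the largest ratio in each other class, and, of the pathway, called genes and receptors. Some genes that the rule takes are not reported here. Others named, such as Isg20, Gbp2, Parp14, B2m and Ifng, were chosen after their values were seen.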

Additional observations from a re-analysis of the deposited data

Results flagged for a closer look

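Samhd1, of the pathway list and not a member, differed between cell classes in its DEX effect. Its log2 fold change was 0.39 in ILC2-like cells and −0.32 in basophil or mast-like cells, a difference of 0.70 with an adjusted p of 0.0342 in edgeR's quasi-likelihood test with litter as a term. In basophil or mast-like cells Samhd1 was at 137 and 136 CPM with DEX and at 189 and 150 CPM with PBS, so both DEX litters were the lower there and the higher in ILC2-like cells.

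The members were also read in barcodes outside the comparisons. The 476 endothelial-like barcodes without a hashtag, which belong to no litter, had a summed level of 3237 CPM, against 2961 CPM in the 268 with one. Iigp1 was at 186 CPM in the 604 untagged mesenchymal-like barcodes and at 107 CPM in the tagged ones. In 75 untagged basophil or mast-like barcodes the members summed to 737 CPM, against 445 CPM in tagged ones. In the other groups the sum was lower without a hashtag. It was 1124 against 1511 CPM in B-like and 662 against 719 CPM in mesenchymal-like barcodes. In ILC2-like barcodes it was 560 against 600 CPM, in epithelial-like 350 against 361 CPM and in unnamed 1130 against 1221 CPM.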

How the results depend on the processing

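With 2 litters per treatment an exact permutation test cannot go below 0.333, so calls rest on the spread shared across genes. In ILC2-like cells 276 genes were called, and 121 with DESeq2, 117 after thinning, 526 without a count filter, 143 without the Cd7 subcluster and 0 in it alone (edgeR, 354 at an unadjusted p under 0.05, with 2 members among them), where fewer cells were summed. The fits for that subcluster were chosen after seeing the data. With the replicate block 535 were called, and for basophil or mast-like cells 7, although the litter numbers showed no pairing. Leaving out 1 litter gave 234 to 439 (429 without DEX-1, 439 without PBS-2). The 2 members called became 1 (Apol9b) with DESeq2 or thinning, 0 in the Cd7 subcluster alone, and 2 to 5 with 1 litter left out. In that subcluster alone the fitted changes of Socs1 and Tmem173 reversed, to 0.53 and 0.48. In basophil or mast-like cells 0 genes were called, 16 with DESeq2, 158 without a filter and 0 to 4 with 1 litter left out. The difference between classes passed for 22 genes, 115 without a filter and 62 to 124 with 1 litter left out, and for 0 members, 2 without a filter (Isg15 and Irf1) and 0 to 2 with 1 litter left out. Cells with transcripts of 3 or more members were 0.146% of ILC2-like cells, 0.682% at 2 or more, 0% at 5 or more and 0.77% unthinned. For endothelial-like cells these shares were 4.48, 15.3, 0.373 and 39.6%, and for basophil or mast-like cells 0.0941, 0.376, 0 and 1.48%. At a clustering resolution of 1 the summed members were 345 CPM in basophil or mast-like and 1037 CPM in mesenchymal-like cells. The causes were not tested. Members with under about 10 UMIs per litter are limited by depth.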

Other observations

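A finer clustering, at a resolution of 1, separated 31 tagged cells with neutrophil markers from the unnamed cluster led by S100a8, Ctss and Ear2. Their summed level of the members was 3455, 1921, 1727 and 1499 CPM in DEX-1, DEX-2, PBS-1 and PBS-2, against a mean of 1029 CPM over the litters of the whole cluster.

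Members of the same family often lay on the same chromosome. On chromosome 11 lay 10 of the 47, among them Irf1 and the IRG GTPases Ifi47, Igtp, Irgm1, Irgm2, Tgtp1 and Tgtp2, and all 4 IFIT genes lay on chromosome 19. The share of all genes on these chromosomes is not given here, so the counts have no background.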
